A study of Mus musculus with 12 samples.

Results

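The Zfp36 mRNA decay family is taken here as 6 genes whose proteins bring about the destruction of messenger RNA: Zfp36, Zfp36l1, Zfp36l2, Btg1, Btg2 and Zc3h12a. The genes were found by their symbols, each had 1 row on the array, and together they are 6 of the 19937 genes that were tested. The rule that finds them uses symbols and no measured level, but the genes were proposed with earlier results of these data known.

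Zfp36 (tristetraprolin), Zfp36l1 and Zfp36l2 carry paired zinc fingers that bind AU-rich elements in the tails of short-lived messages and recruit the CCR4-NOT complex, which shortens the poly(A) tail. Btg1 and Btg2 are antiproliferative proteins whose BTG domain binds the same deadenylase, and Zc3h12a (Regnase-1) is an endoribonuclease that cuts stem-loops in inflammatory messages. Many messages that these proteins remove encode cytokines and other inflammatory mediators, which neutrophils make in quantity.

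RNA came from 4 populations sorted by antibody and flow cytometry from the bone marrow of untreated C57BL/6 mice, with 3 arrays each and 12 in all. LSK cells, the lineage-negative Sca1+ cKit+ stem and progenitor cells, were the starting point, followed by promyelocytes, myelocytes and granulocytes, which are successive steps towards the neutrophil. All groups share the strain and tissue, and none carries a genetic change. The labels name biological replicates without saying that each came from other animals. The p-values therefore rest on differences among these 3 samples per stage, some of which may be technical.

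Every population is a bulk sample, so fewer cells that express a gene and less RNA per cell cannot be told apart. The mean of the markers listed for each stage was highest in that stage, but the 4 myelocyte markers hardly set myelocytes apart from granulocytes. The mean of 5 stem cell markers lay between 10.2 and 10.8 on the log2 scale in LSK cells and at most 8.69 elsewhere, and the mean of 4 granulocyte markers lay between 12.3 and 12.4 in granulocytes and at most 11.2 elsewhere. The mean of 4 promyelocyte markers lay between 11.7 and 12.2 in promyelocytes and at most 11.4 elsewhere. In LSK cells this mean ran from 8.93 to 11.4. Between these 2 stages 2 of the 4 markers, Mpo and Prtn3, were called, when 1.61% of all genes were higher in promyelocytes. Elane and Ctsg were not called. The mean of the myelocyte markers lay between 12.5 and 12.8 in granulocytes, against 12.99 to 13.1 in myelocytes, with 0 of 4 called between these stages. Ly6a, which encodes Sca1, was not analysed here. Markers of other cells were also present. The mean of 6 basophil and mast cell markers ran from 5.04 to 5.92 in LSK cells, 7.50 to 9.51 in promyelocytes, 8.61 to 11.0 in myelocytes and 5.65 to 5.93 in granulocytes, where Cpa3, Ms4a2 and Fcer1a were dim. The mean of 7 monocyte and macrophage markers ran from 6.11 to 7.32 in LSK cells, 8.47 to 9.33 in promyelocytes, 7.18 to 8.65 in myelocytes and 6.96 to 7.48 in granulocytes. It joins opposite courses. In granulocytes against myelocytes 3 of the 7 were called higher and 4 lower, with 2.35% of all genes higher and 5.96% lower. Csf1r, Adgre1 and Cd68 were highest in granulocytes, at 9.26, 7.95 and 9.22, and Ccr2, Ly86, F13a1 and Ms4a6c in promyelocytes. Eosinophil markers averaged 9.21, 6.03 and 9.72 on the 3 promyelocyte arrays and at most 6.23 elsewhere. B, T and NK cell markers averaged at most 5.74 on any array, and Ms4a1, Cd4, Klrb1c and Ncr1 were dim in all 4 stages. Others were not dim: Cd79b averaged 7.29 in LSK cells and 7.48 in promyelocytes, and Il7r 5.81 in LSK cells and 5.69 in myelocytes. In promyelocytes against LSK cells 2 of 6 B cell markers, Cd79a and Ebf1, were called lower, as was 1 of 7 T and NK cell markers. Of all genes 2.75% were lower there. The part of such cells in the members' levels was not tested. Here dim means at or under a level of 4.51, the 95th percentile of 1194 olfactory and vomeronasal receptor genes.

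All values below are the deposited log2 levels, on which a step of 1 is a fold of 2. They are compared between stages within a gene and never between genes. A gene was called where its fold was 2 or more and limma's moderated test gave a Benjamini-Hochberg adjusted p below 0.05 over all 19937 genes.

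The family had its low point in promyelocytes or myelocytes and, with the exception of Zfp36l2, its highest mean in granulocytes. In promyelocytes against LSK cells 4 of the 6 members were called lower and 0 higher, when 2.75% of all genes were called lower and 1.61% higher. In myelocytes against promyelocytes 4 members were called higher and 0 lower, with 7.61% of all genes higher and 9.87% lower. In granulocytes against myelocytes 3 members were higher and 0 lower, when 2.35% of all genes were higher and 5.96% lower. These 3 comparisons share stages with one another, and so do the 3 that follow.

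Across wider intervals the members parted. In granulocytes against promyelocytes 5 members were higher and 0 lower, when 10.1% of all genes were called higher and 16.3% lower. In granulocytes against LSK cells 3 members were higher and 1 lower, with 9.59% of all genes higher and 16.5% lower. In myelocytes against LSK cells 1 member was higher and 2 were lower, with 7.74% of all genes higher and 10.8% lower. The median difference of the members was -1.15 in promyelocytes against LSK cells, 1.46 in myelocytes against promyelocytes and 1.01 in granulocytes against myelocytes, where the medians over all genes were 0.04, 0.01 and 0.09. All 6 members also passed limma's moderated F test for any difference among the 4 stages, the largest adjusted p being 8.69e-05 for Zc3h12a, as did 54% of all genes.

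**Figure D1:**
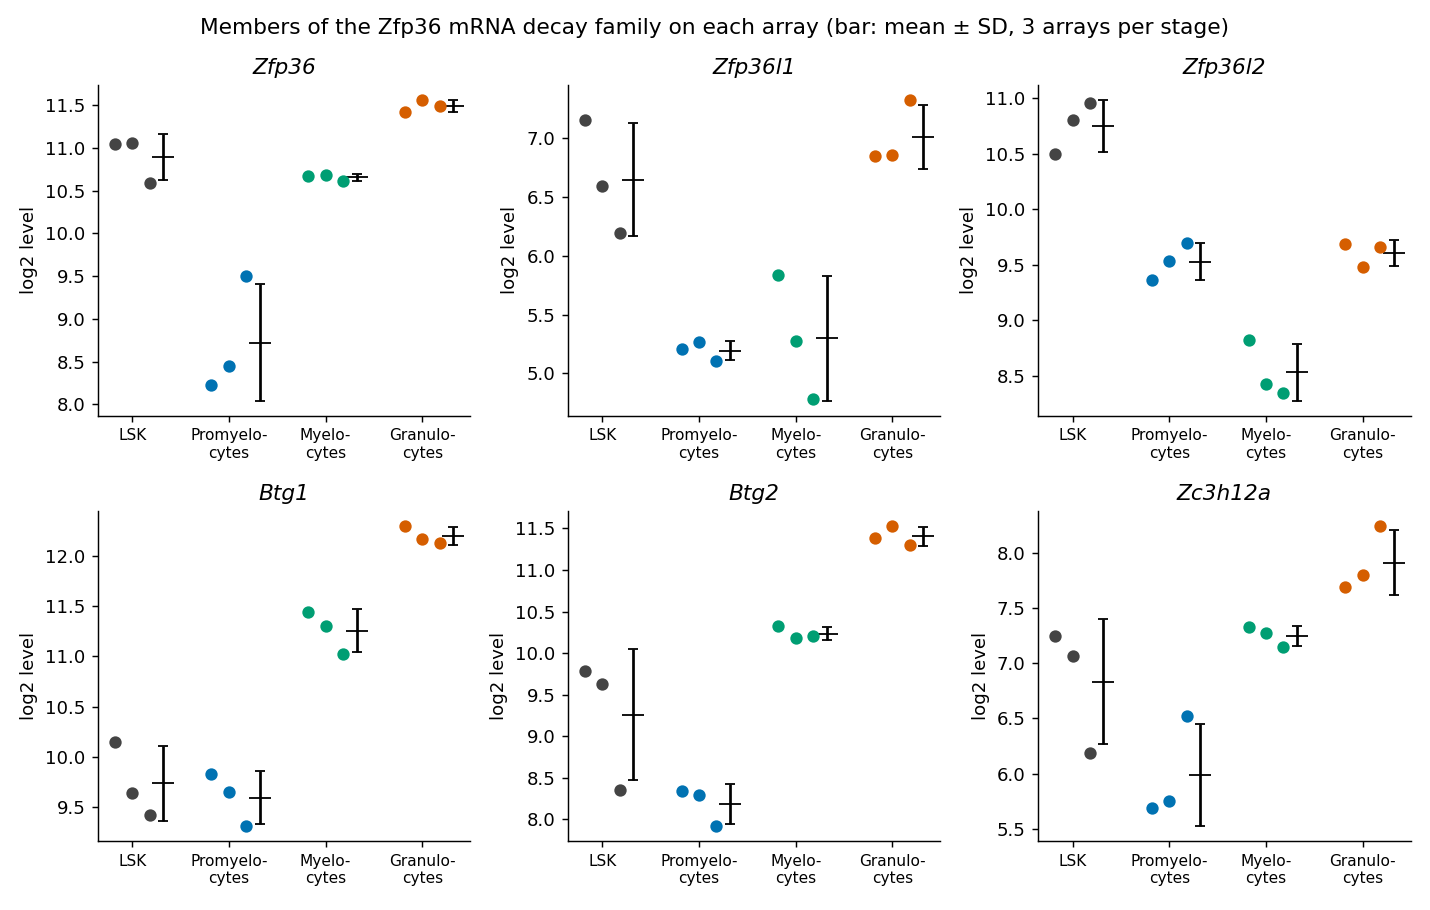
Deposited log2 level (vertical axis, 1 panel per gene with its own scale) on the 3 arrays of each stage; points are arrays in the order of replicate number, and the bar beside them is the mean with its SD (n = 3). Zfp36, Btg2 and Zc3h12a dip in promyelocytes, Zfp36l2 has its lowest mean, 8.53, in myelocytes, and Btg1 climbs to 12.2 in granulocytes with no dip beyond the spread.

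The sequences just upstream of the transcription start are shown for Zfp36 and Btg2, the members with the largest fall into promyelocytes and the largest difference between granulocytes and promyelocytes. They are the 250 bases before the RefSeq start on build GRCm38.p6, read 5′ to 3′ on the strand of the gene, at chr7:28379229-28379478 (minus strand) for Zfp36 and chr1:134079156-134079405 (minus strand) for Btg2. Capitals mark matches to motifs that factors induced or activated by signalling bind. In Zfp36 these are, in order, an EGR match, a CArG box (the serum response element core) and a STAT match, and in Btg2 a cAMP response element and an EGR match.

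Zfp36 upstream: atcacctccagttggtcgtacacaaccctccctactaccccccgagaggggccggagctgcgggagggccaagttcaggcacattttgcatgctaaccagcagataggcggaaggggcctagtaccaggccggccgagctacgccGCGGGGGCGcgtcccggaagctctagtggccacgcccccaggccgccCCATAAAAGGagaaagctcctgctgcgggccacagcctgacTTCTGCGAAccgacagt

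Btg2 upstream: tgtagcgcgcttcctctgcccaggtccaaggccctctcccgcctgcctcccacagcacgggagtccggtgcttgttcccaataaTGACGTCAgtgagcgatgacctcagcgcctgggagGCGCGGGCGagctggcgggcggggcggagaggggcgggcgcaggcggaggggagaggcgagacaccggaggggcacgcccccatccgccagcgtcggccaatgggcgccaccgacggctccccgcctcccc

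Motifs were searched on both strands of the 250 upstream bases of 32851 promoters, and no 2 marked matches overlap. The CArG box, 58 bases before the start of Zfp36, was found in 1.47% of all promoters. The cAMP response element TGACGTCA, 166 bases before the start of Btg2, was found in 1.55%, the EGR motif GCGNGGGCG in 4.7% and the STAT motif TTCNNNGAA in 7.02%. Of the other motifs searched, the AP-1 motif TGANTCA (6.75% of promoters) matched in Zfp36l1, the FOXO motif TGTTTAC (3.17%) in Btg1, the C/EBP motif TTNNGNAA (36.8%) in Zfp36l1 and Zc3h12a, and the NF-kB motif (7.25%) in none of the members with a sequence. Sequences were at hand for 5 of the 6 members, all but Zfp36l2. A match describes the letters in this window, not a bound site.

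Zfp36, the founding member, reads 11.04, 11.06 and 10.58 in LSK cells, 8.23, 8.45 and 9.5 in promyelocytes, 10.67, 10.69 and 10.61 in myelocytes and 11.41, 11.56 and 11.49 in granulocytes. The promyelocyte arrays all lie below every other array, and the third of them stands 1.16 above the mean of the other 2. Zfp36 fell by 2.17 ± 0.25 (SE) in promyelocytes relative to LSK cells, a 4.50-fold lower level (limma adjusted p = 4.55e-05). The study listed it from these arrays among predicted miRNA targets higher in LSK cells than in promyelocytes, so that direction is not independent evidence. Zfp36 then rose by 1.93 ± 0.25 in myelocytes relative to promyelocytes, 3.82-fold (adjusted p = 1.2e-05).

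The other steps of Zfp36 were smaller. Granulocytes stood 0.83 above myelocytes (adjusted p = 0.0245), under a fold of 2, although the arrays did not overlap. In the order of its levels, granulocytes, LSK cells, myelocytes and promyelocytes, the means were 11.5 ± 0.07, 10.9 ± 0.27, 10.7 ± 0.04 and 8.72 ± 0.68 (SD, n = 3 each). Granulocytes and LSK cells, with a difference of 0.59 and a 95% interval of 0.06 to 1.12, missed the adjusted threshold (adjusted p = 0.057), and myelocytes minus LSK cells gave -0.24 with an interval of -0.77 to 0.29 (adjusted p = 0.522). Zfp36 was thus set apart in promyelocytes alone by a called difference from each other stage, with granulocytes 6.79-fold above them (adjusted p = 1.19e-07).

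Zfp36l1, which destabilizes AU-rich messages and is needed with Zfp36l2 for normal lymphocyte development, had the lowest values of its course in the middle stages. Its levels were 7.15, 6.60 and 6.20 in LSK cells, 5.21, 5.27 and 5.11 in promyelocytes, 5.84, 5.28 and 4.78 in myelocytes and 6.85, 6.86 and 7.33 in granulocytes. No promyelocyte or myelocyte array reached the lowest array of LSK cells or of granulocytes.

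Zfp36l1 fell by 1.45 ± 0.26 in promyelocytes relative to LSK cells, 2.74-fold (adjusted p = 0.00131), and by 1.35 ± 0.26 in myelocytes relative to LSK cells (adjusted p = 0.000493). It rose by 1.71 ± 0.26 in granulocytes relative to myelocytes, 3.27-fold (adjusted p = 0.00015). Neighbours at either end of its order were not separated. Granulocytes minus LSK cells gave 0.36, with an interval of -0.19 to 0.91 (adjusted p = 0.245), and myelocytes minus promyelocytes gave 0.10, with an interval of -0.44 to 0.65 (adjusted p = 0.823) and -0.17 without the first myelocyte array. Zfp36 and Zfp36l1 were both low in promyelocytes, but in myelocytes Zfp36 had a called rise and Zfp36l1 had none, and the difference between the 2 genes was not tested.

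Zfp36l2, a close relative with the same zinc fingers that is required in the mouse for haematopoietic stem cell maintenance, followed another course. It read 10.50, 10.80 and 10.96 in LSK cells, 9.36, 9.53 and 9.70 in promyelocytes, 8.82, 8.43 and 8.34 in myelocytes and 9.69, 9.48 and 9.66 in granulocytes. The LSK arrays lie above all others and the myelocyte arrays below all others, whereas promyelocytes and granulocytes overlap. Zfp36l2 fell by 1.22 ± 0.17 in promyelocytes relative to LSK cells (adjusted p = 0.000172) and by 2.22 ± 0.17 in myelocytes relative to LSK cells, 4.67-fold (adjusted p = 3.48e-08).

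The step between promyelocytes and myelocytes sat at the edge of the rule for a call. Myelocytes minus promyelocytes gave -0.999, just under a fold of 2 (adjusted p = 0.000156), and it passed with arrays centred on their medians (-1.07), with cyclic loess (-1.10), with quantile normalization (-1.07), and without the first promyelocyte (-1.08) or the first myelocyte array (-1.14). Zfp36l2 rose by 1.08 ± 0.17 in granulocytes relative to myelocytes (adjusted p = 0.000189), or 0.98, under a fold of 2, without the third myelocyte array. It was the 1 member lower in granulocytes than in LSK cells, by -1.14 (adjusted p = 2.43e-05), although centring on the 75th percentile brought this to -0.93. Granulocytes minus promyelocytes gave 0.08, with an interval of -0.27 to 0.43 (adjusted p = 0.717), and the sign turned with median centring (-0.012) and without the first promyelocyte array (-0.0055).

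**Figure D2:**
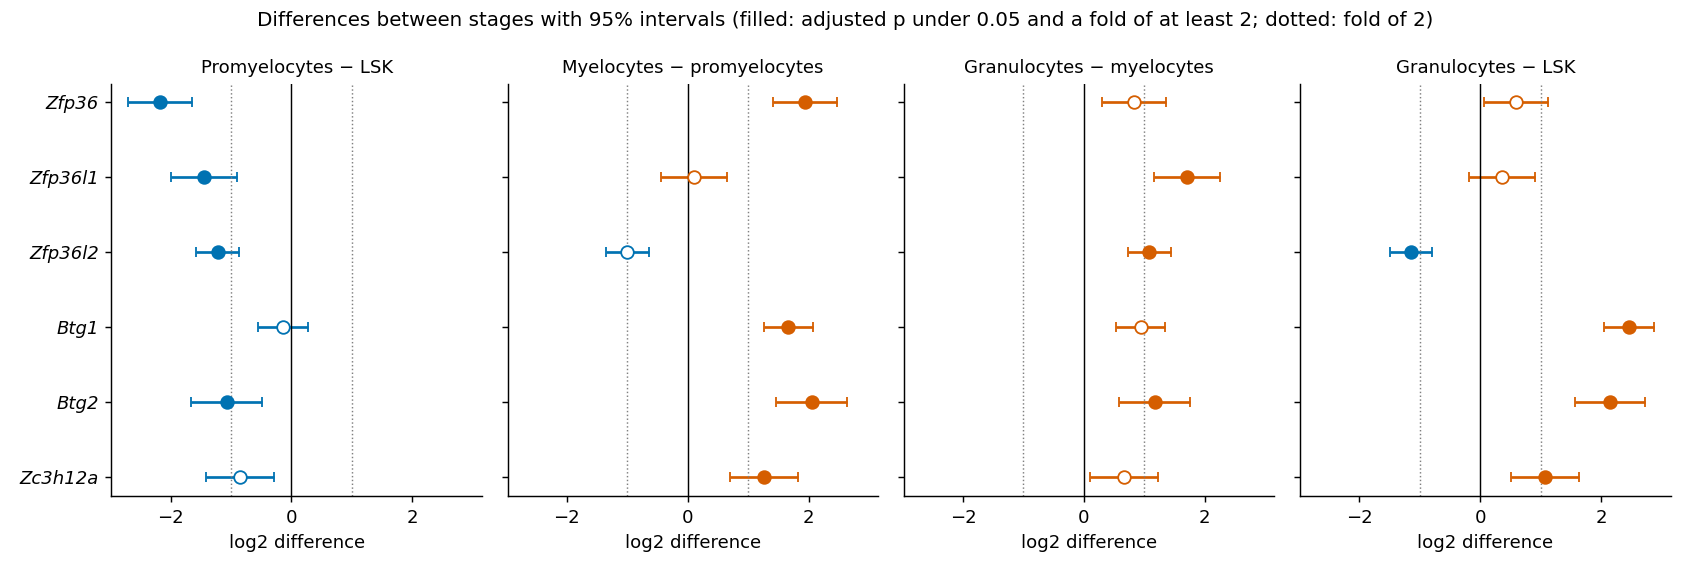
Log2 difference of each member (rows) in 4 pairs of stages (panels), with the 95% interval of the fit; filled points were called, and dotted lines mark a fold of 2. In granulocytes against LSK cells Btg1 and Btg2 lie at 2.46 and 2.15, Zfp36 and Zfp36l1 are not called, and Zfp36l2 lies on the other side at -1.14.

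Btg1, an antiproliferative gene first found at a translocation in a lymphoid leukaemia, showed no early fall. Its levels were 10.15, 9.64 and 9.42 in LSK cells, 9.83, 9.65 and 9.31 in promyelocytes, 11.44, 11.31 and 11.03 in myelocytes and 12.30, 12.17 and 12.13 in granulocytes. LSK cells and promyelocytes overlap, and the 2 later stages stand clear of them and of each other. Promyelocytes minus LSK cells gave -0.14, with an interval of -0.55 to 0.27 (adjusted p = 0.712), and the sign turned without the first LSK array (0.06) or the third promyelocyte array (0.0027).

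Btg1 rose by 1.66 ± 0.19 in myelocytes relative to promyelocytes, 3.16-fold (adjusted p = 3.94e-06). Granulocytes stood a further 0.94 above myelocytes (adjusted p = 0.00186), a fold of 1.92 that was not called, but it reached 1.10 and 1.02 with centring on the 75th percentile and with cyclic loess and 1.03 without the first myelocyte array. The whole course gave 2.46 ± 0.19 in granulocytes relative to LSK cells, 5.51-fold (adjusted p = 2.43e-08). This was the largest difference between these ends among the 6 members.

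Btg2, a p53-responsive immediate early gene that slows the entry into S phase, read 9.78, 9.63 and 8.35 in LSK cells, 8.34, 8.30 and 7.91 in promyelocytes, 10.32, 10.18 and 10.20 in myelocytes and 11.38, 11.53 and 11.30 in granulocytes. The third LSK array is 1.36 below the mean of the other 2 and lies just above the promyelocyte arrays. Btg2 fell by 1.07 ± 0.27 in promyelocytes relative to LSK cells (adjusted p = 0.0162), a call that was lost without the first (-0.81) or second LSK array (-0.88) or the third promyelocyte array (-0.94), and with arrays centred on their medians (-0.99). Without the third LSK array the difference was -1.52 (adjusted p = 6.56e-05).

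The later steps of Btg2 were larger. It rose by 2.05 ± 0.27 in myelocytes relative to promyelocytes, 4.14-fold (adjusted p = 1.87e-05), and by 1.17 ± 0.27 in granulocytes relative to myelocytes (adjusted p = 0.00533). Granulocytes exceeded promyelocytes by 3.22 ± 0.27, 9.32-fold (adjusted p = 6.65e-08), more than for any other member in any of the 6 comparisons. The study named Btg2 from these arrays among predicted miRNA targets higher in granulocytes than in promyelocytes, so that direction is not independent evidence. All neighbours in its order, granulocytes, myelocytes, LSK cells and promyelocytes, passed the adjusted threshold, although myelocytes minus LSK cells, at 0.98 (adjusted p = 0.00977), missed a fold of 2 and was 0.52 without the third LSK array. It passed without the first (1.24) or second LSK array (1.17) or the second myelocyte array (1.01).

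Zc3h12a, the RNase of the family, had 7.24, 7.07 and 6.19 in LSK cells, 5.69, 5.75 and 6.52 in promyelocytes, 7.33, 7.27 and 7.15 in myelocytes and 7.69, 7.80 and 8.24 in granulocytes. The third arrays of LSK cells and of promyelocytes cross, which makes these 2 groups overlap, while granulocytes lie above all other arrays. Promyelocytes minus LSK cells gave -0.85 ± 0.26 (adjusted p = 0.045), under a fold of 2, and -1.17 without the third LSK array, -1.12 without the third promyelocyte array and -1.44 without both.

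Zc3h12a rose by 1.26 ± 0.26 in myelocytes relative to promyelocytes, 2.4-fold (adjusted p = 0.00112), and by 1.92 ± 0.26 in granulocytes relative to promyelocytes (adjusted p = 1.27e-05). Granulocytes minus LSK cells gave 1.08 ± 0.26, 2.11-fold (adjusted p = 0.00282), which fell under a fold of 2 without the third LSK array (0.75) or the third granulocyte array (0.91). Its neighbouring stages in order of level were not separated at the top. Granulocytes minus myelocytes gave 0.66 with an interval of 0.10 to 1.22 (adjusted p = 0.0885), and myelocytes minus LSK cells gave 0.41 with an interval of -0.15 to 0.97 (adjusted p = 0.262).

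Rows also exist for Btg1b, Btg1c and Zfp36l3, which resemble members by name and could share probes with them. Btg1b had means of 2.00, 2.05, 2.19 and 2.57 and Btg1c of 3.41, 3.41, 3.68 and 4.13 from LSK cells to granulocytes, all dim. Zfp36l3 stayed between 4.4 and 4.65, close to the dim level.

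The third LSK array and the third promyelocyte array recur above, and the same 2 arrays stood apart for a set of signal-induced genes. Immediate early genes such as Fos, Egr1 and Nr4a1 are transcribed within minutes of a stimulus without new protein synthesis, and Zfp36, Btg2 and Zc3h12a are also rapidly induced. The mean of 15 such genes was 9.05, 8.99 and 7.66 in LSK cells, 6.95, 6.98 and 7.72 in promyelocytes, 8.36, 8.22 and 8.29 in myelocytes and 9.07, 9.22 and 9.30 in granulocytes. On the third LSK array 15 of 15 genes were below both other LSK arrays, and on the third promyelocyte array 13 of 15 were above both other promyelocyte arrays and 1 was below them.

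The members did not all shift with these arrays. On the third LSK array Zfp36 was 0.47 below the mean of the other 2 arrays, Zc3h12a 0.97 below, Btg1 0.47 below and Btg2 1.36 below. Zfp36l1 was 0.68 below there, whereas Zfp36l2 was 0.30 above. On the third promyelocyte array Zfp36 was 1.16 above the mean of the other 2 and Zc3h12a 0.80 above, whereas Btg1 was 0.43 below and Btg2 0.40 below. Zfp36l1 and Zfp36l2 differed less on this array, by -0.13 and 0.25. With both arrays left out, Zfp36 differed by -2.71 in promyelocytes against LSK cells (adjusted p = 6.45e-07), Btg2 by -1.39 (adjusted p = 0.000135) and Zc3h12a by -1.44 (adjusted p = 0.000423). In that fit 5 of 6 members were called lower, and the share of all genes in it is not given here. The 2 arrays were picked after seeing the data, because they stood out in such genes. Larger differences for Zfp36 and Zc3h12a, and for Btg2 through the third LSK array, were thus built into the choice, and these values are no added evidence. Whether handling of the cells or their state before sorting moved these genes was not tested. The paper describes different antibody sets for sorting LSK cells and the later stages. Staining and stage therefore cannot be told apart in comparisons with LSK cells.

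**Figure D3:**
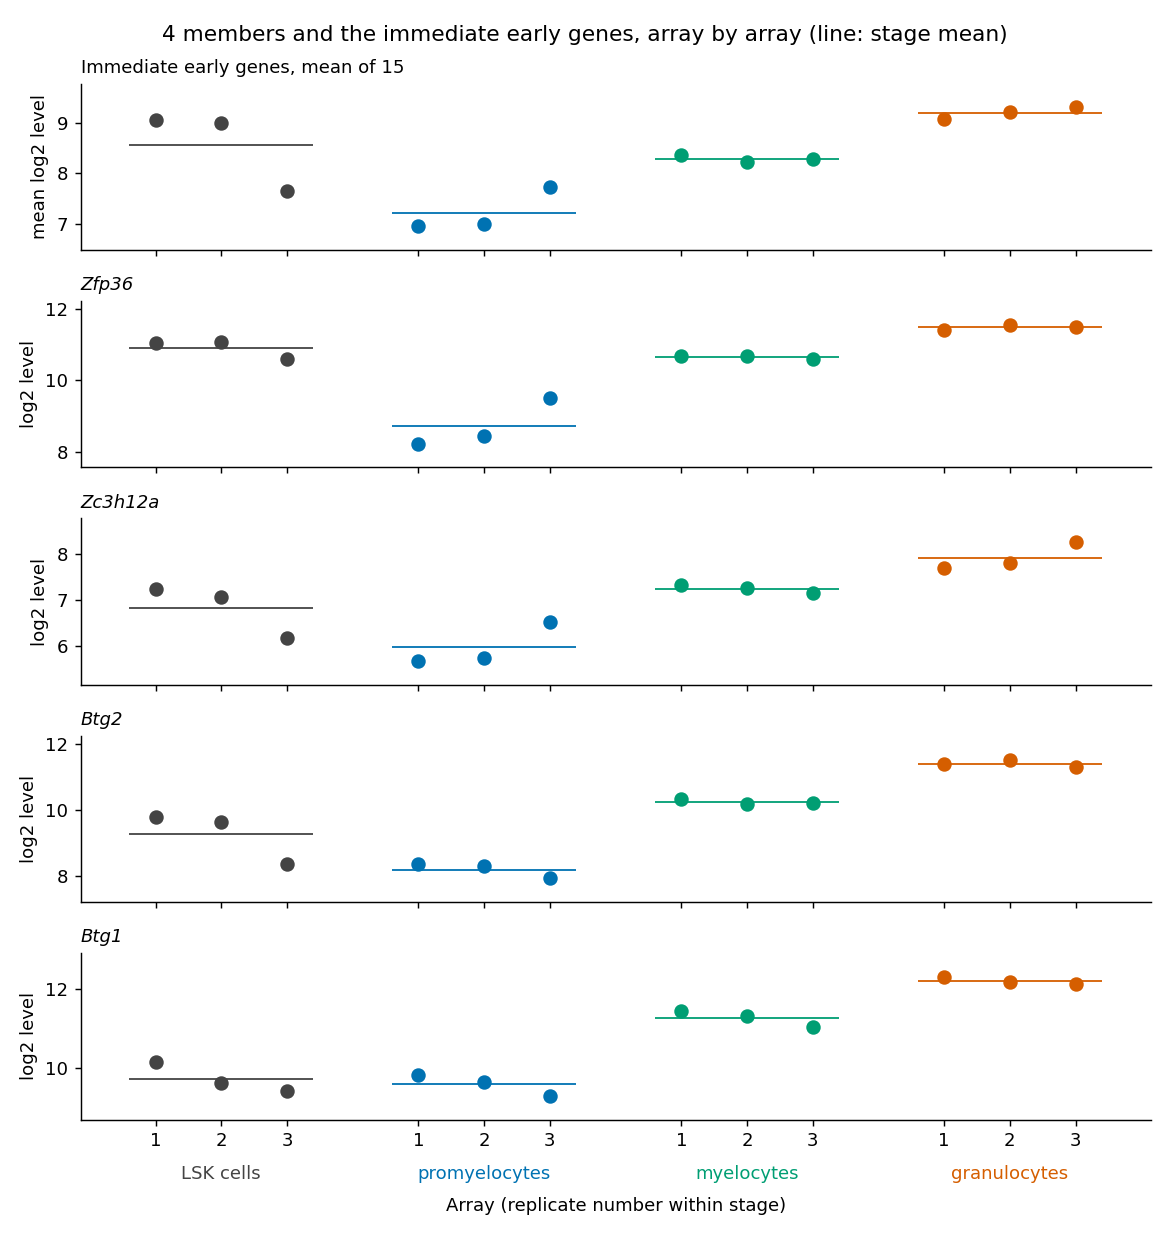
Level on each of the 12 arrays for the mean of 15 immediate early genes (top) and for Zfp36, Zc3h12a, Btg2 and Btg1 (log2 scale, each panel on its own axis); points are arrays and lines are stage means. The third LSK array is low in every panel, at 7.66 for the immediate early genes and 8.35 for Btg2, and the third promyelocyte array is high for the immediate early genes (7.72), Zfp36 (9.5) and Zc3h12a (6.52) but not for Btg2 (7.91) or Btg1 (9.31).

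Among the immediate early genes themselves 9 of 15 (60%) fell in promyelocytes relative to LSK cells (median -1.18, all genes 0.04). Of all genes 2.75% were called lower there. The fall was led by the nuclear receptor Nr4a1 (-4.26, adjusted p = 3.87e-05), Egr1 (-1.92), Fosb (-1.90) and the cytokine signalling inhibitor Socs3 (-1.87). Without the 2 arrays 12 of 15 fell, but the arrays had stood out in these same genes, so that count is no added evidence. In myelocytes against promyelocytes 5 (33.3%) rose, or 8 without the 2 arrays, when 7.61% of all genes were higher. In granulocytes against myelocytes 6 (40%) rose, among them Dusp1 (2.06) and Junb (2.04), when 2.35% of all genes were higher. In granulocytes against promyelocytes 12 of 15 (80%) rose with or without the 2 arrays, when 10.1% of all genes were higher. Ier5 rose there by 3.83 and Nr4a1 by 3.16. The shares of all genes given here are those with all 12 arrays.

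Correlations over the 12 arrays describe which members moved alike, and since the arrays fall into 4 stages they mostly reflect stage means. Pearson's r was 0.943 between Btg1 and Btg2, 0.921 between Btg2 and Zc3h12a and 0.9 between Zfp36 and Zc3h12a. Zfp36l2 stood apart from these, with r of 0.133 with Zfp36, -0.272 with Btg2 and -0.47 with Btg1, and its highest value was 0.569 with Zfp36l1.

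Of 13221 other genes that were not dim in every stage, those with the course most like each member were the following, over the same 12 arrays. For Zfp36 these were the kinase gene Sik1 (r = 0.962), Jmjd1c (0.956), Slc30a10 (0.943), Uba7 (0.941) and Ppp1r16b (0.94). Sik1 had means of 9.19, 7.74, 8.87 and 9.77 from LSK cells to granulocytes, the same dip in promyelocytes. For Zfp36l1 they were Stk39 (0.946), Gch1 (0.937), Tbxas1 (0.932), Stn1 (0.926) and Pip5k1c (0.922), and for Zfp36l2 they were Camk2a (0.957), Fam171a1 (0.955), Tcaf1 (0.955), the lipin gene Lpin2 (0.954) and Impact (0.95).

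The remaining members had closer companions. Btg1 was matched by Irak2 (0.995), a kinase of interleukin 1 and Toll-like receptor signalling, and by Slc6a6 (0.995), Arhgap15 (0.994), Ppp1r3d (0.992) and Sc5d (0.991). For Btg2 the genes were Stk17b (0.982), Ier5 (0.977), Plek (0.977), Ccng2 (0.971) and the uridylyltransferase gene Tut7 (0.968). For Zc3h12a they were Nfkbiz (0.972), whose message Regnase-1 is known to cut, the survival gene Mcl1 (0.971), Nfkbie (0.963), Rsrc2 (0.961) and Klf6 (0.959). Nfkbiz had means of 8.47, 7.13, 9.60 and 10.3 from LSK cells to granulocytes.

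The enzymes that carry out the decay were examined next. CCR4-NOT and PAN2-PAN3 subunits, the deadenylase Parn and the poly(A) binding protein Pabpc1 made 15 measured genes of 16 listed. In granulocytes against LSK cells 4 of the 15 (26.7%) were called lower and 0 higher (median -0.75, all genes 0.17), when 16.5% of all genes were called lower, so the count lies not far from that share. These were Parn (-2.95, adjusted p = 1.45e-08), Cnot9 (-2.34, adjusted p = 4.33e-09), Pabpc1 (-1.15) and Cnot6l (-1.0). Cnot9, the subunit whose human counterpart contacts Zfp36 and other recruiting proteins, read 8.09, 8.23 and 8.29 in LSK cells, 8.54, 8.61 and 8.24 in promyelocytes, 7.00, 7.15 and 7.30 in myelocytes and 5.84, 6.10 and 5.65 in granulocytes. The catalytic subunits were not called in this comparison except Cnot6l, and the subunits that bind BTG proteins, Cnot7 and Cnot8, gave -0.06 (adjusted p = 0.738) and -0.01 (adjusted p = 0.978).

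Of the 17 decapping and 5′ decay genes, all of which were measured, 6 (35.3%) were lower and 0 higher in granulocytes against LSK cells (median -0.25), when 16.5% of all genes were lower. The leading ones were Lsm7 (-2.38), Lsm3 (-2.03) and Lsm2 (-1.91), which belong to the ring that binds deadenylated tails and in part also to the spliceosome, and the decapping cofactor Dcp1b (-1.76). The fall was widest in the exosome, the complex that degrades RNA from its 3′ end, and in its Ski helper complex. Of 14 measured genes of 15 listed, 8 (57.1%) fell in myelocytes relative to promyelocytes (median -1.19), when 9.87% of all genes were lower. They were led by Exosc2 (-2.55) and the Ski subunit Ttc37 (-2.28). In granulocytes relative to myelocytes 7 (50%) fell, led by Exosc8 (-2.41) and the nuclease Dis3 (-1.66), when 5.96% of all genes were lower.

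In granulocytes against LSK cells 11 of the 14 exosome and Ski genes (78.6%) were lower (median -2.01), when 16.5% of all genes were lower, and the same count stood with any 1 array left out. Dis3 read 4.48, 4.71 and 4.49 in granulocytes, near the dim level, against 8.34, 8.03 and 7.84 in LSK cells (adjusted p = 6.31e-10). The 1 gene of the list called higher was the Ski helicase gene Skiv2l, which rose by 1.13 (adjusted p = 4.69e-06), while Exosc4 gave 0.13 and was not called. All 15 measured proliferation genes, among them Mcm2 (-3.74) and Top2a (-3.67), were also lower in granulocytes than in LSK cells (median -3.07). In granulocytes relative to myelocytes 14 of 15 fell, when 5.96% of all genes were lower. Whether the exosome genes fell with proliferation was not tested.

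**Figure D4:**
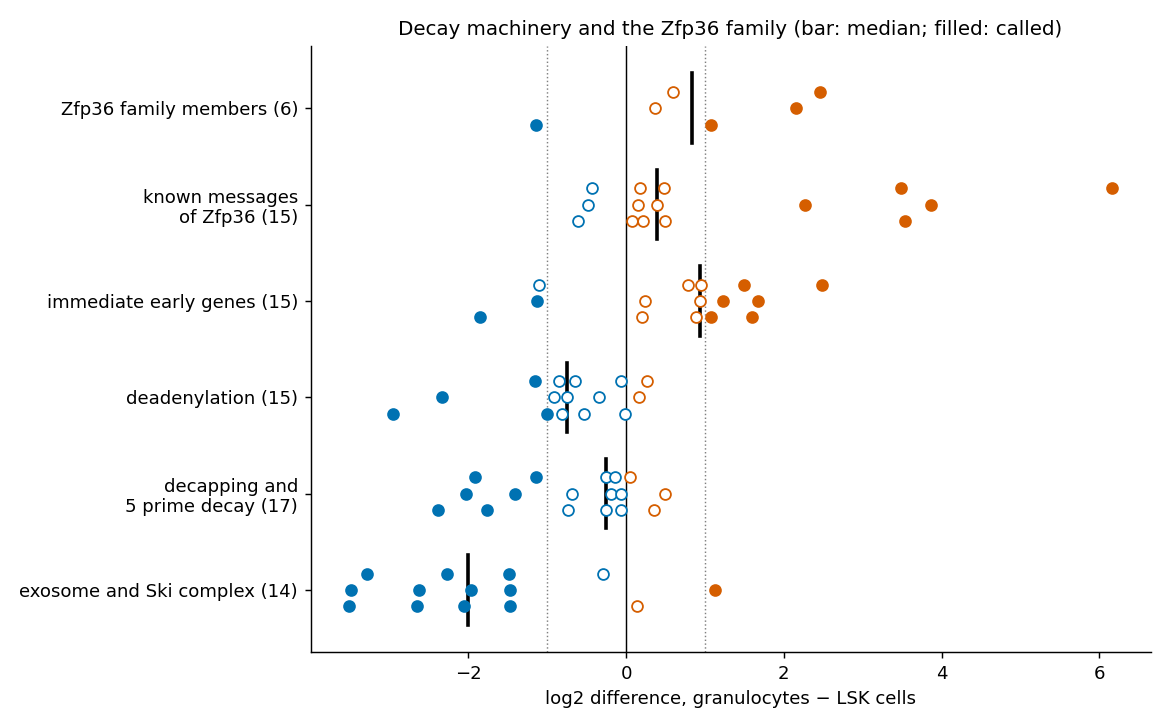
Log2 difference in granulocytes against LSK cells for each measured gene (points) of 6 groups (rows, with the number of genes), where bars are medians, filled points were called and dotted lines mark a fold of 2. Most exosome and Ski genes lie beyond the left dotted line, lower by more than a fold of 2 (median -2.01), whereas the Zfp36 family members have a median of 0.83.

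Tob1, the BTG-domain relative of Btg1 and Btg2 that also binds the deadenylase, had the dip and the rise. It read 8.12, 7.97 and 7.94 in LSK cells, 6.62, 6.83 and 7.15 in promyelocytes, 9.94, 9.94 and 9.76 in myelocytes and 9.96, 10.15 and 9.89 in granulocytes, with no overlap between promyelocytes and any other stage. Tob1 fell by 1.15 in promyelocytes relative to LSK cells (adjusted p = 0.000139) and rose by 3.01 in myelocytes relative to promyelocytes (adjusted p = 6.26e-10). It was 1 of 3 measured relatives of 4 listed. Btg4 was dim in all stages, and Tob2 was called in none of the 6 comparisons.

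The other 13 measured regulators of message stability, of 14 listed, included relatives of Zc3h12a. Zc3h12d rose by 1.10 in granulocytes relative to myelocytes (adjusted p = 0.000124) and by 1.48 relative to LSK cells, whereas Zc3h12c fell by 1.56 in myelocytes relative to promyelocytes (adjusted p = 6.56e-06) and was dim in granulocytes. Khsrp and Hnrnpd, whose proteins bind AU-rich elements, fell by 1.33 and 1.29 in granulocytes relative to LSK cells. In that comparison 2 genes of the list were higher and 5 (38.5%) lower (median -0.81), when 9.59% of all genes were higher and 16.5% lower.

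Among 10 genes for kinases and partners that act on the members, 3 were higher and 1 lower in granulocytes against LSK cells (median 0.48), when 9.59% of all genes were higher and 16.5% lower, and counts this small say little about the list. The p38 kinase gene Mapk14 rose by 1.07 and its activator Map2k3 by 1.06, while Map2k6, another activator, fell by 2.48 and averaged 4.63 in granulocytes, near the dim level. Dusp1, the phosphatase that switches p38 off and is also an immediate early gene, rose by 1.5. Mapkapk3, a p38-activated kinase, rose by 1.15 in promyelocytes relative to LSK cells (adjusted p = 0.000707), where Zfp36 fell. It was the 1 gene of the 10 called higher there, and Dusp1 was the 1 called lower (median -0.10). Of all genes 1.61% were higher and 2.75% lower in that comparison.

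Messages that Zfp36 is known to destabilize, 15 of 15 measured, are given next. Of these, 6 were dim in LSK cells, 6 in promyelocytes, 4 in myelocytes and 5 in granulocytes, and dim genes leave little room for a call of lower. In myelocytes against promyelocytes, where Zfp36 rose, 6 (40%) were higher and 0 lower (median 0.50), when 7.61% of all genes were called higher. In granulocytes against promyelocytes, where Zfp36 also rose, 8 (53.3%) were higher and 0 lower (median 1.15, all genes 0.13), with 10.1% of all genes higher. In granulocytes against LSK cells, where Zfp36 was not called, 5 (33.3%) were higher and 0 lower (median 0.39), with 9.59% of all genes higher. Ptgs2, which encodes the prostaglandin enzyme COX-2, read 10.78, 10.93 and 11.38 in granulocytes, against 5.59, 5.88 and 7.02 in promyelocytes (4.87, adjusted p = 5.14e-07). Plk3 rose by 4.55 and the chemokine gene Cxcl2 by 3.82 in the same pair, and Il1b, dim in promyelocytes at 4.15, was 10.6 in granulocytes. Tnf, the classical message of Zfp36, had means of 7.11, 6.95, 9.14 and 9.38 from LSK cells to granulocytes.

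In promyelocytes against LSK cells, where Zfp36 fell, 1 of these 15 messages was called lower, the chemokine gene Ccl3 (-1.80, adjusted p = 0.0108), and 0 higher. Of all genes 2.75% were called lower and 1.61% higher, so a count of 1 says little. It also depended on the arrays, since it was 0 lower without the first promyelocyte array. Without both arrays named above 6 were lower and 0 higher. Those arrays were picked after seeing the data, and some of these messages, such as Ptgs2, Plk3 and Cxcl2, shifted with them. That count is therefore no added evidence. The shares of all genes with arrays left out are not given here. Of the 10 messages that Regnase-1 is known to cut, 2 were higher and 1 lower in granulocytes against promyelocytes (median 0.46), near the shares of all genes called, 10.1% higher and 16.3% lower. Since 5 of the 10 were dim in promyelocytes and 4 in granulocytes, these counts say little about the list. Nfkbiz rose by 3.14 and the granule protein gene Lcn2 by 3.89, whereas the transferrin receptor gene Tfrc fell by 2.59. Il6, which is in both lists, was above the dim level only in myelocytes, at 5.18. The mean of the basophil and mast cell markers was also highest there, although its range overlapped that in promyelocytes, and Cpa3 was higher in promyelocytes and Hdc in granulocytes. The part of such cells in the level of Il6 was not tested.

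Of 10 measured p53 target genes of 12 listed, 5 (50%) were higher and 0 lower in granulocytes against LSK cells (median 1.04), when 9.59% of all genes were higher, among them Gadd45a (3.37), Trp53inp1 (3.16), Sesn2 (2.91) and Pmaip1 (1.81). Trp53inp1 had the dip that Btg2 had, falling by 2.08 in promyelocytes relative to LSK cells (adjusted p = 0.000134) and rising by 3.94 in myelocytes relative to promyelocytes (adjusted p = 1.88e-08). The list as a whole did not share the fall. In promyelocytes against LSK cells 2 of the 10, Trp53inp1 and Plk2, were lower and 0 higher, when 2.75% of all genes were lower. The median of the list there was 0.06, against 0.04 for all genes. Cdkn1a and Bax were not analysed here.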

How the data were processed

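Total RNA of 12 samples had been hybridised to 1-colour Affymetrix Mouse Gene 1.0 ST arrays. The deposited values are log2 levels, which the authors made with justRMA (background correction, quantile normalization and median polish), and no further normalization was applied. The justRMA version is not given in the sources used here. Array medians lay between 4.96 and 5.12, no 2 arrays held identical values, and arrays of 1 stage correlated at 0.981 to 0.991 across genes. Of 34760 rows, 21640 carried 1 gene symbol in GEO's platform annotation, 1321 several and 11799 none; the row with the highest mean stood for each gene.

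In R 4.3.3 with limma 3.58.1, 1 model of 4 stage means was fitted to 12 arrays and 19937 genes (lmFit, eBayes). It gave 6 contrasts and an F test with Benjamini-Hochberg adjustment, and was tested on simulated data. Precision is limited by the number of arrays, and the within-stage SD had a median of 0.21. The members and the gene lists were chosen with earlier results of these data known. Named were all members, the 5 genes best correlated with each (predicted models and receptor genes left out) and up to 4 called genes per list and comparison; others with values (Tnf, Cnot7, Cnot8, Tob2, Il6, Skiv2l, Exosc4 and related rows) were chosen after their values were seen. Genes of the lists that had no row with 1 symbol were not analysed here. Alternatives were 4 other scalings, the filter on dim genes, the choice of rows, the thresholds, the eBayes options, fits of 2 groups, a replicate block and leaving out arrays. Promoter sequences are RefSeq's on GRCm38.p6.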

Additional observations from a re-analysis of the deposited data

How the results depend on the processing

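Of 165 counts of members called under another setting, 164 were within 1.5 times the reported count and 138 equalled it. The exception was granulocytes against myelocytes, where 5 in place of 3 members passed with no minimum fold. Leaving out 1 array gave 3 to 5 members in promyelocytes against LSK cells, 4 to 5 in myelocytes against promyelocytes, 2 to 4 in granulocytes against myelocytes, 3 to 4 in myelocytes against LSK cells, 3 to 4 in granulocytes against LSK cells, 5 in granulocytes against promyelocytes and 6 in the F test. Leaving out the third LSK array and the third promyelocyte array together was chosen after seeing the data. Signs turned only in differences that were not called: Zfp36l1 in myelocytes against promyelocytes (-0.17 without the first myelocyte array, range -0.17 to 0.36 over single arrays left out), Zfp36l2 in granulocytes against promyelocytes (-0.012 with median centring, -0.0055 without the first promyelocyte array) and Btg1 in promyelocytes against LSK cells (0.065 without the first LSK array, 0.0027 without the third promyelocyte array, range -0.30 to 0.065). The cause was not tested. Of the single differences under another setting, 829 kept direction and call, 10 lost the call, 20 gained it and 5 turned. The 2-group fit left Btg2 in promyelocytes against LSK cells at an adjusted p of 0.0633.

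Centring arrays on the 75th percentile moved the median of all genes by 0.16 in granulocytes against myelocytes, by 0.21 against LSK cells and by 0.22 against promyelocytes. In granulocytes against myelocytes 41.8% of calls over all genes were then higher, against 28.3%, and against LSK cells 46.7% in place of 36.7%. With no minimum fold the genes called numbered 2594 in place of 870 in promyelocytes against LSK cells, 6900 in place of 3485 in myelocytes against promyelocytes, 4373 in place of 1657 in granulocytes against myelocytes, 7250 in place of 3693 in myelocytes against LSK cells, 10338 in place of 5205 in granulocytes against LSK cells and 9933 in place of 5267 in granulocytes against promyelocytes.

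With the replicate block the counts of members called stayed at 4, 4, 3, 3, 4 and 5 in the 6 comparisons and at 6 in the F test, and it changed no member's call. Whether the numbers pair the samples was not established, since the labels do not say and no reference level was computed. Of 18 same-numbered pairs of arrays 7 deviated together with a correlation over 0.1 (range -0.25 to 0.25). Of 12 arrays 6 correlated best with an array of their own number.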
